A study of Homo sapiens with 18 samples.

Results

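The genes described are the expressed numbered zinc finger genes: 122 gene symbols of the form ZNF plus a number, with at most 1 letter after it, whose mean raw count was at least 100 in each of 3 groups of DMSO-treated libraries. They were 122 of 529 symbols with such a name and of 26485 symbols counted in all. The groups were BxPC3, Panc327 and SUIT2 cells treated with 100 nM THZ1 for 6 h, and the same 3 lines treated with DMSO for 6 h, with 3 libraries in each of the 6 groups. All 3 are established human pancreatic cancer cell lines, and the labels name no genetic change in any of them. THZ1 is a covalent inhibitor of the transcription kinase CDK7 that also binds CDK12 and CDK13. The series asks how cells withstand a block of transcription. Because the genes were chosen by their DMSO counts, the DMSO levels are given as a description, and a gene low with DMSO and high with THZ1 could not enter.

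Most numbered ZNF genes encode C2H2 zinc finger proteins, in which repeated fingers, each held by a zinc ion, read the DNA sequence. Many carry a KRAB domain, which recruits the co-repressor KAP1 (gene TRIM28) and through it the histone methyltransferase SETDB1, and some carry a SCAN domain, which joins proteins into pairs. Human KRAB genes lie largely in clusters on chromosome 19, and transcripts of many zinc finger genes turn over quickly. The name also covers proteins with other tasks, among them ribosome assembly, ribosome quality control and RNA processing.

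The name pattern was checked against coding sequences of GENCODE 29. Of the 122 genes 120 had one, and the other 2, ZNF252P and ZNF271P, are pseudogenes. The number of C2H2 fingers found had a median of 9 and ran between 0 and 33, and 2 genes had 0 fingers by the pattern used. A KRAB pattern was found in 50 of the 120 and a SCAN pattern in 8, of which 7 had both. Chromosome 19 held 27 of the 122 genes, 18 of them with KRAB, followed by chromosome 7 with 12 and chromosome 16 with 11. Gene spans had a median of 26.1 kb, against 31.7 kb over 13306 tested genes with a match.

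The promoters of 3 genes are shown because ZNF526 and ZNF202 were lower with THZ1 in all 3 lines and ZNF512 was the gene higher in all 3. Each is the 250 bases before a gene start in RefSeq on GRCh38.p14, written 5′ to 3′ on the gene's strand, at chr19:42220062-42220311 (plus strand) for ZNF526, chr11:123741661-123741910 (minus strand, the outermost of its 2 entries) for ZNF202 and chr2:27582792-27583041 (plus strand) for ZNF512. Capitals mark matches on either strand. In ZNF526 they mark GC boxes (GGGCGG) and the shorter element known as a CCAAT box, and the GC box nearest the start overlaps the neighbouring CCAAT box. In ZNF202 the capitals mark a match to the core bound by factors of the ETS family (CCGGAAG). In ZNF512 they mark GC boxes and, further towards the start, 1 match to the palindrome of an E box (CACGTG).
ZNF526: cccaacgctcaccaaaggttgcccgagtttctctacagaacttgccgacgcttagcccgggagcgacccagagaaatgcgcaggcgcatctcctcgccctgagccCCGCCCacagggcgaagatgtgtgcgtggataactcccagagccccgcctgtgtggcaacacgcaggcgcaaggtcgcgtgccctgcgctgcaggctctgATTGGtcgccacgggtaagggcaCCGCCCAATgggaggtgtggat
ZNF202: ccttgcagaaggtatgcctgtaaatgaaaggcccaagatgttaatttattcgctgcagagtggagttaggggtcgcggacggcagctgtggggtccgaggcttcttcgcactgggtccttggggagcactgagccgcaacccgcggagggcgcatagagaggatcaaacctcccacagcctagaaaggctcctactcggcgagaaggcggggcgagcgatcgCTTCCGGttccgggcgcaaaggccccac
ZNF512: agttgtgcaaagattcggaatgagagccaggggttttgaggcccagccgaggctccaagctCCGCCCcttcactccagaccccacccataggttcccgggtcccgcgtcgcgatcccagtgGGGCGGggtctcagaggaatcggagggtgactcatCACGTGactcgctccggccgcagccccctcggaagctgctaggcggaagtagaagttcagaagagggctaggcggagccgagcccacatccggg
RefSeq entries matched 102 of the 122 genes, with 137 promoters. The ETS core stood in 28.5% of these promoters, against 13.4% of 15147 promoters of tested genes and 8.52% of all 35116 promoters in the table. The GC box stood in 63.5%, against 62.3% and 42.6%, and the CCAAT box in 29.2%, against 32.7% and 32%. A TATA box (TATAAA) stood in 2.92%, against 6.13% and 10.7%, and a core element bound by ZNF143 (ACTACAA) in 5.11%, against 2.96% and 2.47%. Among the promoters of genes that fell with THZ1 in Panc327, 36 of 110 held the ETS core, against 3 of 27 promoters of the other genes, a comparison given without a test.

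All 18 libraries had between 5626146 and 8631273 counts on genes. No 2 libraries of a group were identical, and replicate pairs differed by more than counting noise. The labels do not say that replicates were separate cultures, and if they were not, the spread behind the p-values is technical. Epithelial markers were present in every group, with KRT8 between 1217 and 4825 and KRT18 between 792 and 2380 CPM, that is, counts per 1000000 gene counts. KRT19 ran between 592.5 and 1683 CPM and EPCAM between 156 and 740.5 CPM. CDH1 was at 31.6 CPM with THZ1 and 30.4 CPM with DMSO in SUIT2, against 676 to 909.6 CPM in the other lines. Of the pancreatic genes listed, PDX1 was at 0 in both Panc327 groups. GATA6 was at most 1.38 CPM in Panc327, against 36.3 to 59.0 CPM in the other lines. KRT7 was at most 16.3 CPM in SUIT2, against 1076 to 1781 CPM in the other lines, and SOX9 ran between 4.49 and 63.1 CPM. The 4 leukocyte markers summed to 30.6 CPM with THZ1 and 23.5 CPM with DMSO in BxPC3, to 20.85 and 11.03 CPM in Panc327, and to 361.8 and 358.2 CPM in SUIT2. PTPRC, the pan-leukocyte gene among them, reached at most 0.0573 CPM and CD3E at most 0.498 CPM, whereas CD68 had 10.1 to 49.9 CPM in every group and LYZ 314.2 CPM with THZ1 and 308.3 CPM with DMSO in SUIT2. The 4 fibroblast markers summed to 60.4 CPM with THZ1 and 53.5 CPM with DMSO in Panc327, nearly all of it COL1A1, and to at most 14.7 CPM in the other lines, with DCN at 0 in all groups. The 3 endothelial markers summed to between 3.31 and 15.3 CPM. The part of these marker levels in the results was not tested. Records aligned to more than 1 place made up 52.8% of all records in the THZ1 libraries of Panc327, against 13.6% in its DMSO libraries, 22.8% against 12.8% in BxPC3 and 12.9% against 13.2% in SUIT2. The part these records play in the results below was not tested. Fewer cells and less RNA per cell cannot be told apart in bulk RNA, total RNA per cell was not measured, and all directions are relative to the median gene.

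The levels below are CPM scaled by TMM, and a gene is said to rise or fall where its adjusted p is under 0.05. The share of gene counts that fell on the 122 genes was lower with THZ1 in all 3 lines, and the gap was smallest in SUIT2. With library size scaling only, the median log2 fold change over all tested genes was itself -0.35 in BxPC3, -0.34 in Panc327 and 0 in SUIT2. The medians of the 122 genes were then -1.09, -1.48 and -0.04. The share was taken on raw counts without TMM scaling, so it is not relative to the median gene. In BxPC3 it averaged 0.324% ± 0.0042 with THZ1 and 0.520% ± 0.0020 with DMSO (SD, n = 3 each). In Panc327 it averaged 0.262% ± 0.0061 with THZ1 and 0.554% ± 0.0081 with DMSO (SD, n = 3 each). SUIT2 had 0.446% ± 0.0073 with THZ1 and 0.459% ± 0.0027 with DMSO (SD, n = 3 each). The libraries of the 2 treatments did not overlap in any of the 3 lines, and in SUIT2 the highest THZ1 share was 0.453% and the lowest DMSO share 0.456%. With 3 libraries against 3, an exact permutation test of such a share cannot go below p = 0.1, so no p is given.

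**Figure D1:**
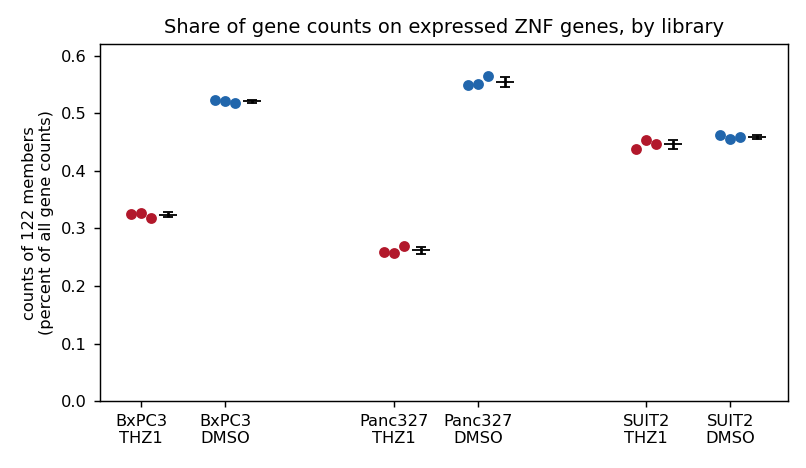
Percent of all gene counts that fell on the 122 expressed ZNF genes in each library, THZ1 libraries in red and DMSO libraries in blue, with the mean and SD of 3 libraries in black. Panc327 averaged 0.262% with THZ1 and 0.554% with DMSO, while SUIT2 averaged 0.446% and 0.459%.

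THZ1 lowered most of the expressed ZNF genes in Panc327 and in BxPC3 and few of them in SUIT2. All 122 passed the filter on low counts, as their choice by DMSO counts made likely. In Panc327, 101 of 122 (82.8%) fell at an adjusted p under 0.05 in edgeR, 11 rose and 10 did not pass. Over all 14011 tested genes 37.8% fell and 35.6% rose, and among the 7555 genes of any name that met the same DMSO count rule 43.7% fell and 41.8% rose. In BxPC3, 81 of 122 (66.4%) fell, 25 rose and 16 did not pass, against 34.1% lower and 35.2% higher over all tested genes and 37.2% lower and 47.1% higher among genes meeting the same count rule. In SUIT2, 11 of 122 (9.02%) fell, 4 rose and 107 did not pass, against 7.64% lower and 6.95% higher over all tested genes and 8.68% lower and 10.2% higher among genes meeting the same count rule. The share that fell in SUIT2 was thus near both backgrounds, and the 3.28% that rose was below them. The 11 became 6 without DMSO library 3 of SUIT2, and the 4 became 2 without DMSO library 1, DMSO library 3 or THZ1 library 3 of SUIT2 and with DESeq2. Library size scaling only moved the median of all genes to -0.35 in BxPC3 and -0.34 in Panc327 on the log2 scale. The counts were then 111 lower and 7 higher in Panc327, against 50.3% lower and 22.6% higher over all tested genes. In BxPC3 they were 99 lower and 12 higher, against 50.7% and 18.6%. Among those of the 122 called in BxPC3, 10.8% were higher, against 23.6% with TMM. Among all tested genes called there, 26.8% were higher, against 50.8% with TMM.

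The falls were also large. The median log2 fold change of the 122 genes was -1.15 in Panc327, with quartiles of -1.87 and -0.50, and -0.70 in BxPC3, with quartiles of -1.37 and 0.13. The median in SUIT2 was -0.02, and single genes there ran between -0.52 and 0.29. The medians over all tested genes were -0.01 in Panc327, 0.00 in BxPC3 and 0.01 in SUIT2. A fall of at least 2-fold was called for 69 of the 122 genes in Panc327, against 19% of all tested genes. It was called for 48 of the 122 in BxPC3, against 15.1%, and for 0 in SUIT2, against 0.45%. In SUIT2, 29 of the 122 (23.8%) had an unadjusted p under 0.05, against 27.1% of all tested genes. DESeq2 called 9 lower and 2 higher there. A rise of at least 2-fold was called for 2 of the 122 in BxPC3, ZNF512 and ZNF428, against 5.73% of all tested genes. In Panc327 it was called for 0, against 7.69%. The 3 THZ1 libraries all lay below the 3 DMSO libraries for 103 of the 122 in Panc327, against 38.9% of all tested genes. The same held for 81 of the 122 in BxPC3, against 35.1%, and for 24 in SUIT2, against 14%.

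**Figure D2:**
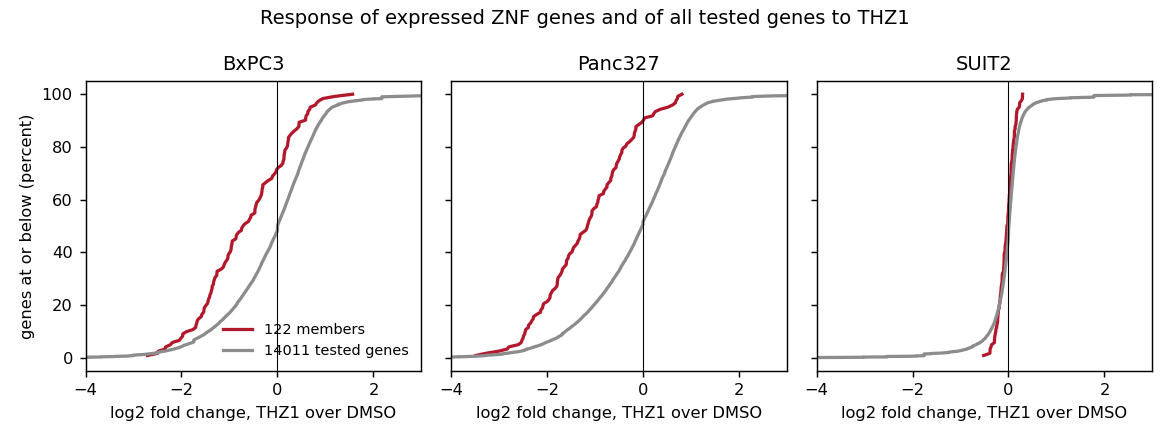
Cumulative percent of genes (vertical axis) at or below each log2 fold change, THZ1 over DMSO (horizontal axis), for the 122 expressed ZNF genes in red and 14011 tested genes in grey, by line. The red curve lies left of the grey curve in BxPC3 and Panc327, with medians of -0.70 and -1.15, and close to it in SUIT2.

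Most of the genes moved in the same direction in BxPC3 and Panc327. In both BxPC3 and Panc327, 79 of 122 fell (64.8%, against 26.3% of all tested genes) and 8 rose (6.56%, against 26.1%). The 8 were ZNF219, ZNF267, ZNF367, ZNF428, ZNF512, ZNF652, ZNF664 and ZNF721. Opposite calls in the 2 lines were made for 10 genes (8.2%, against 4.34%), 9 of them higher in BxPC3 and lower in Panc327. The log2 fold changes of the 122 genes in BxPC3 and Panc327, which share no libraries, had a Spearman's rho of 0.746 across genes, which are not independent replicates. This rho was not computed over all tested genes, so it is not shown to be particular to the 122. One gene, ZNF280D, was called in no line, at -0.03 in BxPC3, -0.28 in Panc327 and -0.15 in SUIT2, and 44.2% of its transcript is shared with another annotated gene.

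**Figure D3:**
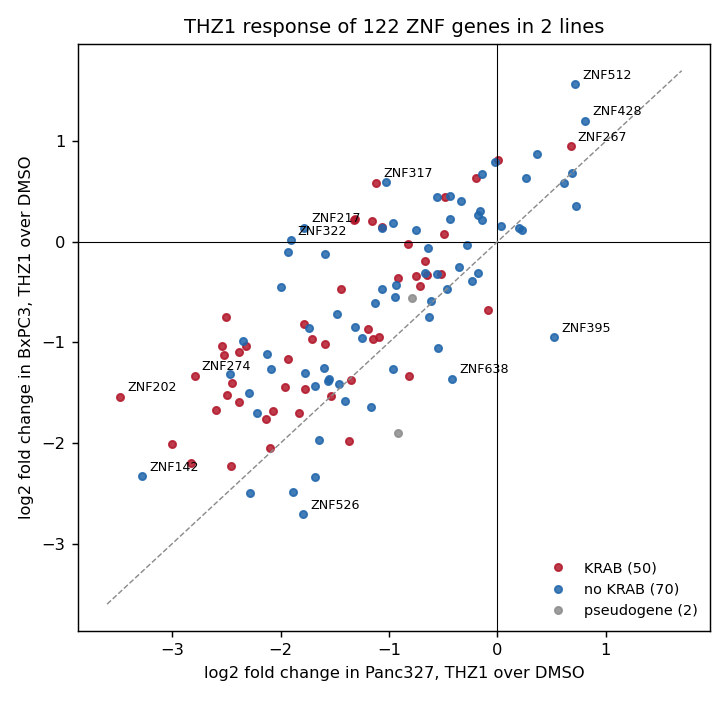
Log2 fold change, THZ1 over DMSO, in Panc327 (horizontal axis) and BxPC3 (vertical axis) for each of the 122 genes, coloured by KRAB domain, with a dashed line of equal response. Of the 122 genes 96 lie above the dashed line, that is, lower in Panc327 than in BxPC3. The same share over all tested genes was not computed. The median difference, BxPC3 minus Panc327, was 0.48 for the 122 genes and 0.02 over all tested genes.

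Genes with a KRAB domain had lower medians than the others in both lines. In Panc327, 46 of 50 KRAB genes fell and 1, ZNF267, rose, with a median log2 fold change of -1.49, against 53 of 70 lower, 10 higher and a median of -0.95 without KRAB. In BxPC3, 38 of 50 KRAB genes fell and 7 rose, with a median of -0.99, against 41 lower, 18 higher and a median of -0.44 without KRAB. All 18 KRAB genes on chromosome 19 fell in Panc327, with a median of -2.23 and a range of -2.83 to -0.49. The 32 KRAB genes elsewhere had a median of -1.36 there, the 9 genes on chromosome 19 without KRAB -1.13 and the other 61 genes -0.94. In SUIT2 the medians of these 4 classes lay between -0.07 and 0.00. Genes with 8 or more fingers had a median of -1.38 in Panc327 and -0.86 in BxPC3, against -0.60 and -0.31 for the 16 genes with 0 to 2 fingers. Shorter genes were lower too, as the 61 genes with a span at or under the median had medians of -1.59 in Panc327 and -1.06 in BxPC3, against -0.79 and -0.36 for the 61 longer genes. Span and log2 fold change had a Spearman's rho of 0.271 in Panc327 and 0.257 in BxPC3 across the 122 genes, against -0.0012 and -0.024 over 13306 tested genes. These class values are descriptions with no test, and the classes overlap.

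**Figure D4:**
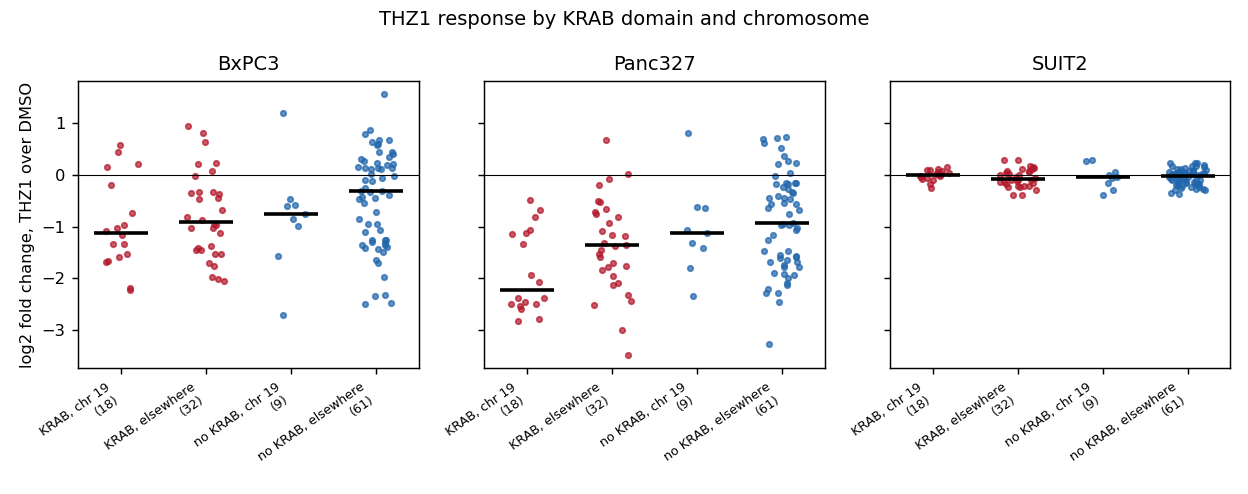
Log2 fold change, THZ1 over DMSO, of each gene by KRAB domain and chromosome in each line, with the number of genes in brackets and a black bar at the class median. In Panc327 the 18 KRAB genes on chromosome 19 all lie below 0, with a median of -2.23.

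Among KRAB genes, the lowest responses in Panc327 were those of ZNF202, ZNF7, ZNF45 and ZNF274. ZNF202, a SCAN and KRAB protein known as a repressor of lipid metabolism genes (chr11:123724177-123741675), had 7.11, 10.1 and 8.97 CPM in the THZ1 libraries of BxPC3, against 26.4, 23.8 and 26.1 CPM in the DMSO libraries, a fall of -1.54 ± 0.13 (log2, SE, adjusted p = 1.57e-19). In Panc327 ZNF202 had 1.91, 2.07 and 1.18 CPM with THZ1, against 18.2, 20.3 and 19.9 CPM with DMSO. This fall of -3.48 ± 0.20 (adjusted p = 9.96e-29) was the lowest of the 122 in that line, and the fall in BxPC3 was smaller, with a difference of 1.94 ± 0.28 (BxPC3 minus Panc327, adjusted p = 1.44e-08). In SUIT2 ZNF202 had 18.5, 21.5 and 21.5 CPM with THZ1, against 24.8, 27.6 and 27.7 CPM with DMSO, a fall of -0.38 ± 0.096 (adjusted p = 0.00277). The THZ1 and DMSO libraries of ZNF202 did not overlap in any line.

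ZNF274, a SCAN and KRAB protein that brings KAP1 and SETDB1 to the 3′ ends of other zinc finger genes (chr19:58183029-58213562), had a higher DMSO level in Panc327 than in the other lines. It had 5.90, 6.62 and 9.86 CPM with THZ1 in Panc327, against 50.4, 51.5 and 52.5 CPM with DMSO, a fall of -2.79 ± 0.12 (adjusted p = 6.13e-38). In BxPC3 it fell by 1.33 on the log2 scale (adjusted p = 2.08e-13), with 6.58, 5.30 and 7.31 CPM with THZ1, against 17.2, 15.8 and 15.6 CPM with DMSO. In SUIT2 the libraries overlapped, at 16.8 ± 0.672 CPM with THZ1 and 16.7 ± 0.827 CPM with DMSO (SD, n = 3 each). ZNF45 (chr19:43912629-43935278) had 2.95, 5.17 and 2.56 CPM with THZ1 in Panc327, against 22.1, 27.1 and 25.9 CPM with DMSO, a fall of -2.83 ± 0.17 (adjusted p = 1.94e-28). Its fall in BxPC3 was -2.19 ± 0.16 (adjusted p = 2.85e-22), and in SUIT2 its value of 0.09 did not pass. ZNF7 on chromosome 8 had 3.64, 2.69 and 2.56 CPM with THZ1 in Panc327, against 21.8, 24.9 and 25.8 CPM with DMSO, a fall of -3.00 ± 0.17 (adjusted p = 2.21e-29). ZNF7 overlaps COMMD5, and the counting strand is not given, so reads of the 2 genes may be mixed.

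ZNF746, ZNF436 and ZNF267 had calls of the same direction in both lines, while others, among them ZNF263 and ZNF317 described further on, were called in opposite directions. ZNF746, also called PARIS, a repressor of the gene for PGC-1α, had 3.297, 3.72 and 3.55 CPM with THZ1 in Panc327, against 19.6, 19.6 and 21.5 CPM with DMSO, and fell by 2.52 on the log2 scale there and by 1.13 in BxPC3. ZNF436 fell by 1.53 in BxPC3 and by 1.53 in Panc327. In SUIT2 ZNF436 had 26.1, 24.3 and 26.3 CPM with THZ1, against 20.8, 20.1 and 21.7 CPM with DMSO. That rise of 0.29 ± 0.097 (adjusted p = 0.0275) was opposite in direction and was lost with DESeq2 (adjusted p = 0.0767) and on leaving out any of 5 of the 6 SUIT2 libraries, with adjusted p between 0.0526 and 0.0941. ZNF436 overlaps its antisense gene ZNF436-AS1. ZNF267 was the KRAB gene that rose in Panc327, with 31.2, 36.2 and 32.4 CPM with THZ1, against 20.5, 21.2 and 20.5 CPM with DMSO, a rise of 0.68 ± 0.097 (adjusted p = 1.7e-09). In BxPC3 it rose by 0.95 ± 0.081 (adjusted p = 7.94e-19).

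Genes without KRAB gave the lowest responses in BxPC3. ZNF526, a protein with 13 fingers by the pattern used (chr19:42220271-42228201), had 2.85, 5.66 and 4.49 CPM with THZ1 in BxPC3, against 27.5, 28.8 and 28.9 CPM with DMSO. This fall of -2.71 ± 0.15 (adjusted p = 9.33e-31) was the lowest of the 122 in BxPC3. In Panc327 ZNF526 had 7.46, 6.62 and 7.69 CPM with THZ1, against 25.2, 24.9 and 25.9 CPM with DMSO, a fall of -1.80 ± 0.14 (adjusted p = 8.29e-22). In SUIT2 it had 11.2, 9.89 and 11 CPM with THZ1, against 13.1, 15 and 14 CPM with DMSO. The SUIT2 fall of -0.39 ± 0.12 (adjusted p = 0.0227) was lost without THZ1 library 2, DMSO library 2 or DMSO library 3, with adjusted p of 0.0972, 0.0977 and 0.0603. No library of ZNF526 overlapped between treatments in any line.

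ZNF142, with 31 fingers (chr2:218637916-218659655), had 4.69, 2.48 and 4.74 CPM with THZ1 in Panc327, against 39.4, 39.3 and 38.4 CPM with DMSO, a fall of -3.27 ± 0.14 (adjusted p = 1.1e-37). In BxPC3 it had 6.05, 6.19 and 7.31 CPM with THZ1, against 32.3, 34.0 and 32.3 CPM with DMSO, a fall of -2.33 ± 0.13 (adjusted p = 1.39e-30). Its value in SUIT2, -0.16, did not pass, and the difference of the responses was -3.12 ± 0.17 (Panc327 minus SUIT2, adjusted p = 1.47e-29). ZNF740 (chr12:53180700-53195141) had 9.43, 12.9 and 11.3 CPM with THZ1 in BxPC3, against 57.0, 53.5 and 59.9 CPM with DMSO, a fall of -2.34 ± 0.10 (adjusted p = 4.41e-37). ZNF142 overlaps BCS1L, and ZNF740 overlaps CSAD and ITGB7. ZNF623 and ZNF696, both on chromosome 8, fell in BxPC3 (-2.50 and -2.48) and in Panc327 (-2.28 and -1.89). The pseudogene ZNF252P fell in all 3 lines, and with -0.52 ± 0.10 (adjusted p = 0.000138) it was the lowest of the 122 in SUIT2, where it had 16.5, 18 and 16.6 CPM with THZ1, against 26.1, 21.2 and 25.4 CPM with DMSO.

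**Figure D5:**
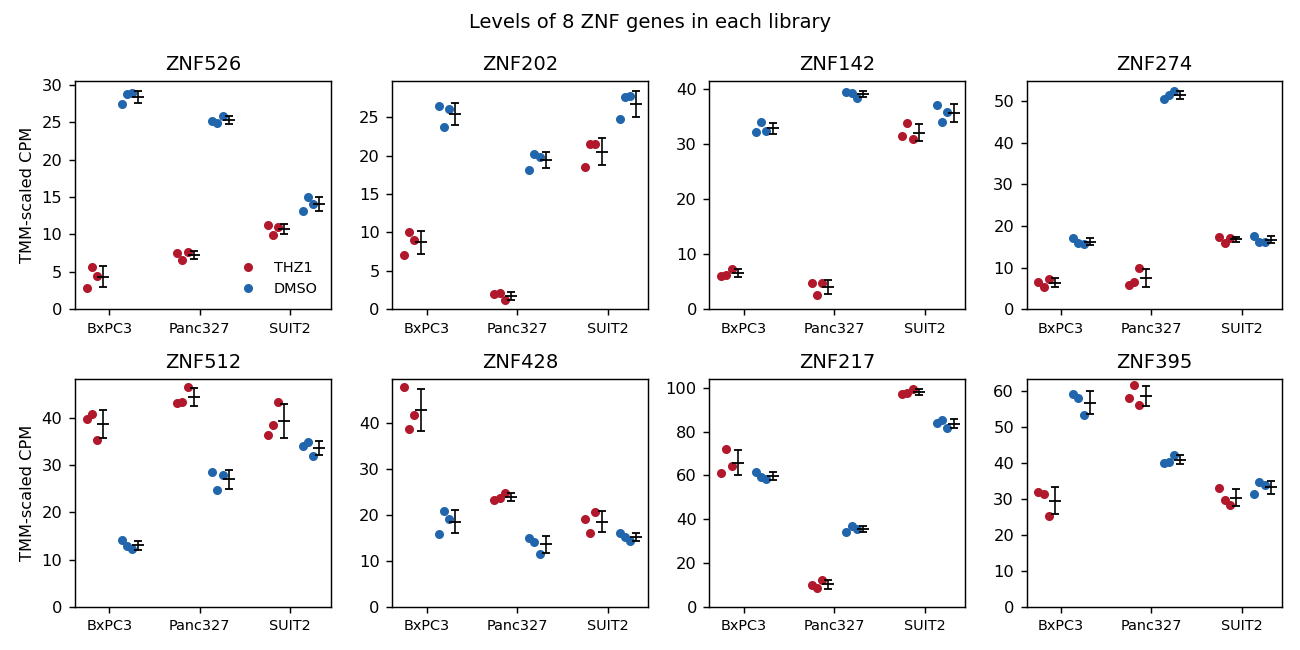
TMM-scaled CPM (vertical axis, from 0) of 8 ZNF genes in every library, THZ1 in red left of DMSO in blue within each line, with the mean and SD of 3 libraries in black. ZNF526, ZNF202, ZNF142 and ZNF274 are lower with THZ1 in BxPC3 and Panc327, ZNF512 and ZNF428 are higher there, and ZNF217 and ZNF395 differ between these lines.

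ZNF512 rose most of the 122 in BxPC3 and was the one gene called higher in all 3 lines (0.82% of the 122 genes, against 3.62% of all tested genes). ZNF512 (chr2:27582969-27623215) had 39.8, 40.8 and 35.4 CPM with THZ1 in BxPC3, against 14.1, 12.8 and 12.3 CPM with DMSO, a rise of 1.57 ± 0.10 (adjusted p = 1.72e-25). In Panc327 it had 43.2, 43.4 and 46.6 CPM with THZ1, against 28.5, 24.7 and 27.8 CPM with DMSO, a rise of 0.72 ± 0.087 (adjusted p = 5.56e-12). In SUIT2 it had 36.4, 38.5 and 43.4 CPM with THZ1, against 34.0, 34.9 and 31.9 CPM with DMSO. The SUIT2 rise of 0.23 ± 0.080 (adjusted p = 0.0359) was lost under 9 of the alternatives, 4 of them the removal of 1 SUIT2 library, with adjusted p of up to 0.296. Of its transcript 34.1% is shared with another annotated gene, AC074091.1. ZNF428 on chromosome 19 had 47.8, 38.7 and 41.9 CPM with THZ1 in BxPC3, against 15.8, 20.8 and 19 CPM with DMSO, a rise of 1.20 ± 0.099 (adjusted p = 1.25e-19). In Panc327 it rose by 0.81 ± 0.12 (adjusted p = 3.55e-09), and in SUIT2 its value of 0.29 did not pass (adjusted p = 0.0701).

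Smaller rises were shared by genes of several kinds. ZNF219, known in mouse as a partner of SOX9 in cartilage, rose by 0.69 ± 0.079 in Panc327 and by 0.68 ± 0.061 in BxPC3, with 163, 171 and 175 CPM with THZ1 in BxPC3, against 96.5, 118 and 102 CPM with DMSO. ZNF367 rose by 0.73 ± 0.10 in Panc327, with 32.1, 31.7 and 41.8 CPM with THZ1, against 22.3, 21.5 and 19.9 CPM with DMSO. Its rise of 0.35 in BxPC3 became -0.04 with library size scaling only. ZNF664, among the most abundant of the 122, rose by 0.59 in BxPC3 and by 0.62 in Panc327. ZNF219 overlaps ARHGEF40 and ZNF664 overlaps CCDC92, so reads of these genes may be mixed. ZNF721 rose by 0.87 ± 0.13 in BxPC3 (adjusted p = 1.23e-08), where its THZ1 and DMSO libraries did not overlap, and its rise of 0.36 in Panc327, where they did, was lost without THZ1 library 3 (adjusted p = 0.181) or DMSO library 1 (adjusted p = 0.0661) and with library size scaling only.

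The response differed between lines for many of the genes. The BxPC3 response was higher than the Panc327 response for 68 of 122 genes and lower for 10, against 22.2% and 14.1% of all tested genes, and the 10 became 16 with upper quartile scaling and 18 with a fit of only the lines compared. The Panc327 response was lower than the SUIT2 response for 98 and higher for 8, against 32.4% and 28.3%. The BxPC3 response was lower than the SUIT2 response for 76 and higher for 23, against 27.6% and 27.3%. With library size scaling only, the 23 became 5 and the 8 became 4. These 3 differences share libraries pairwise, so they are not independent of one another.

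ZNF217, an oncogene amplified in breast cancer that acts in co-repressor complexes (chr20:53567065-53609907), was among the genes that differed most between lines. In BxPC3 it had 61.0, 72.1 and 64.1 CPM with THZ1, against 61.6, 59.3 and 58.2 CPM with DMSO, and the libraries overlapped (0.14, adjusted p = 0.0612). In Panc327 it had 9.89, 8.48 and 12.4 CPM with THZ1, against 34.1, 36.9 and 35.4 CPM with DMSO, a fall of -1.79 ± 0.11 (adjusted p = 2.33e-26). In SUIT2 it had 97.1, 97.7 and 99.6 CPM with THZ1, against 84.2, 85.2 and 81.5 CPM with DMSO, a rise of 0.23 ± 0.058 (adjusted p = 0.0029). The BxPC3 response was 1.93 ± 0.13 higher than that in Panc327 (adjusted p = 1.55e-22). ZNF322 on chromosome 6 had a like pattern, with a difference of 1.92 ± 0.19 (adjusted p = 2.98e-15), 0.01 in BxPC3 and -1.91 in Panc327, and 27.6% of its transcript is shared with other genes.

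ZNF395, a factor induced by hypoxia, was the gene that fell in BxPC3 and rose in Panc327. It had 32, 31.3 and 25.2 CPM with THZ1 in BxPC3, against 59.1, 58.0 and 53.3 CPM with DMSO, a fall of -0.95 ± 0.083 (adjusted p = 2.44e-18). In Panc327 it had 58.1, 61.7 and 56.2 CPM with THZ1, against 40.1, 40.2 and 42.4 CPM with DMSO, a rise of 0.52 ± 0.077 (adjusted p = 3.68e-09). The difference was -1.47 ± 0.11 (BxPC3 minus Panc327, adjusted p = 4.54e-20), and 41.7% of its transcript is shared with FBXO16. ZNF638, a nuclear matrix protein that silences unintegrated retroviral DNA, fell in both lines and more in BxPC3, by 1.36 there and by 0.41 in Panc327, a difference of -0.95 ± 0.097 (adjusted p = 8.31e-14). Its fall of -0.23 in SUIT2 was lost without DMSO library 3 (adjusted p = 0.0592).

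Most opposite calls were rises in BxPC3 beside falls in Panc327. ZNF317 (chr19:9140380-9163424) had 71.7, 71.8 and 69.6 CPM with THZ1 in BxPC3, against 47.2, 47.3 and 47.4 CPM with DMSO, a rise of 0.59 ± 0.070 (adjusted p = 2.61e-12). In Panc327 it had 26.4, 25.7 and 26.2 CPM with THZ1, against 59.8, 52.3 and 58.1 CPM with DMSO, a fall of -1.12 ± 0.084 (adjusted p = 6.83e-22). ZNF622, a maturation factor of the large ribosomal subunit, rose by 0.60 ± 0.071 in BxPC3 (adjusted p = 1.8e-12) and fell by 1.02 in Panc327 (adjusted p = 7.51e-15). ZNF207, a spindle assembly and kinetochore protein also called BuGZ, rose by 0.45 in BxPC3 and fell by 0.44 in Panc327, and its BxPC3 call was lost with library size scaling only (adjusted p = 0.254). ZNF24 and ZNF592 did the same, at 0.40 and 0.45 in BxPC3 and -0.34 and -0.56 in Panc327, and both BxPC3 calls were lost with library size scaling only. ZNF644, a partner of the histone methyltransferases G9a and GLP, was 0.23 in BxPC3 and -0.44 in Panc327, and its BxPC3 value became -0.17 with library size scaling only. ZNF263, at 0.23 in BxPC3 and -1.31 in Panc327, had overlapping libraries in BxPC3. Its BxPC3 call was lost without THZ1 library 2 (adjusted p = 0.296) or DMSO library 2 (adjusted p = 0.059). The call was also lost with upper quartile scaling (adjusted p = 0.0891), and its value reversed to -0.16 with library size scaling only. The gene ZNF263 also overlaps TIGD7, so reads of these genes may be mixed.

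Several sequence-specific factors with known tasks fell in both BxPC3 and Panc327, and others did not. ZNF143, an activator at many promoters, had 4.62, 7.42 and 6.64 CPM with THZ1 in BxPC3, against 16.9, 14.7 and 16.6 CPM with DMSO, and fell by 1.36 there and by 1.55 in Panc327. ZNF281, which binds GC-rich promoters, fell by 1.39 in BxPC3 and by 1.56 in Panc327. ZNF335 and ZNF687, which belong to chromatin complexes, fell by 1.42 and 1.26 in BxPC3 and by 1.46 and 1.60 in Panc327, and ZNF687 overlaps PI4KB. ZNF384, a fusion partner in acute leukaemia, fell by 0.43 in BxPC3 and by 0.94 in Panc327, and ZNF318 by 0.86 and by 1.73. ZNF148, a factor that binds GC-rich promoters, rose by 0.67 in BxPC3, with 82.5, 74.2 and 76.6 CPM with THZ1, against 49.4, 49.8 and 47.3 CPM with DMSO, and was not called in Panc327, at -0.15. ZNF703, an oncogene of luminal breast cancer, fell in Panc327, at 14.9, 14.3 and 12.6 CPM with THZ1, against 44.5, 39.3 and 43.0 CPM with DMSO, and in SUIT2 by 0.28, while its BxPC3 value of -0.12 did not pass. ZNF652 and ZNF768 were 0.63 and 0.30 in BxPC3, and ZNF652 was 0.26 in Panc327. The ZNF652 call in Panc327 was lost without any of THZ1 library 1, THZ1 library 3 and DMSO library 3 and became -0.06 with library size scaling only, and ZNF768 became -0.09 in BxPC3. ZNF655, at 0.15 in BxPC3, became a called fall of -0.24 with library size scaling only (adjusted p = 0.000273). Its rise was lost without THZ1 library 2 (adjusted p = 0.0657) or DMSO library 2 (adjusted p = 0.0632). It was also lost with upper quartile scaling (adjusted p = 0.297), no filter (adjusted p = 0.107) and a fit of BxPC3 only (adjusted p = 0.0846). The gene ZNF655 overlaps FAM200A.

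Some of the genes have tasks in translation or RNA processing. ZNF598, the ubiquitin ligase that marks collided ribosomes, had 59.2, 62.3 and 61.8 CPM with THZ1 in Panc327, against 102, 89.2 and 94.5 CPM with DMSO, a fall of -0.64 ± 0.077 (adjusted p = 9.31e-11), and its BxPC3 value of -0.07 did not pass. ZNF593, whose yeast relative acts in ribosome assembly, fell by 0.31 in BxPC3 and by 0.67 in Panc327. ZNF326, a member of a complex that links transcript elongation to splicing, fell in all 3 lines, by 0.31 in BxPC3, 0.18 in Panc327 and 0.35 in SUIT2. Its Panc327 call was lost with RLE size factors (adjusted p = 0.377), with DESeq2 (adjusted p = 0.434) and without THZ1 library 1 (adjusted p = 0.0647). The 9 genes lower in all 3 lines (7.38%, against 4.32% of all tested genes) were ZNF202, ZNF252P, ZNF326, ZNF526, ZNF623, ZNF629, ZNF638, ZNF639 and ZNF783. The genes higher in SUIT2 were ZNF106, ZNF217, ZNF436 and ZNF512, and ZNF106 was 0.23 there (adjusted p = 0.00185), against -0.25 in BxPC3 and -0.35 in Panc327.

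Levels per length with DMSO, a description because DMSO counts chose the genes, ran between 1.39 and 38.0 CPM per kb of merged exons, with a median of 4.77. ZNF146, a protein made almost wholly of fingers, was highest at 38.0 CPM per kb over the 9 DMSO libraries, followed by ZNF593 at 34.2, ZNF664 at 29.04, ZNF622 at 22.8 and ZNF770 at 19.98. With THZ1, ZNF146 had 96.0, 93.1 and 84.8 CPM in Panc327, against 232, 241 and 253 CPM with DMSO, and 52.1, 52.7 and 55.3 CPM in BxPC3, against 171, 150 and 158 CPM. It fell by 1.40 in Panc327 and by 1.58 in BxPC3. ZNF770 fell by 1.68 in Panc327 and by 1.44 in BxPC3. At the edge of the rule, the lowest group mean, always that of SUIT2, was 100.3 counts for ZNF140, 101 for ZNF593 and 102.3 for ZNF496, and 99 for ZNF510, 98.7 for ZNF772 and 98.3 for ZNF780A, which were left out. Of 407 numbered ZNF symbols outside the rule, 320 were tested, of which 262 fell and 11 rose in Panc327, 209 fell and 20 rose in BxPC3, and 17 fell and 7 rose in SUIT2. These are 81.9% lower and 3.44% higher in Panc327, against 37.8% and 35.6% of all tested genes. In BxPC3 they are 65.3% and 6.25%, against 34.1% and 35.2%, and in SUIT2 5.31% and 2.19%, against 7.64% and 6.95%.

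The partners through which KRAB proteins silence genes included some that fell and some that rose. Co-repressor genes were listed as 23 symbols, of which FAM208A and TASOR name the same gene, and 22 symbols were tested. Of these, 12 fell and 6 rose in Panc327 and 10 fell and 9 rose in BxPC3, while 4 fell and 1 rose in SUIT2. These are 54.5% lower and 27.3% higher in Panc327, against 37.8% and 35.6% of all tested genes, 45.5% and 40.9% in BxPC3, against 34.1% and 35.2%, and 18.2% and 4.55% in SUIT2, against 7.64% and 6.95%. The list's median log2 fold changes were -0.30 in Panc327, -0.19 in BxPC3 and 0.04 in SUIT2. Single genes ran between -3.11 and 1.11 in Panc327, -2.17 and 1.10 in BxPC3, and -0.77 and 0.17 in SUIT2. The genes named below include ends of these ranges. TRIM28, which encodes KAP1, rose by 0.35 ± 0.038 in Panc327 (adjusted p = 9.79e-14) and by 0.77 ± 0.039 in BxPC3 (adjusted p = 1.36e-30). Co-repressor genes were not followed under the alternative scalings. Library size scaling only took a rise of like size in Panc327, that of ZNF721, from 0.36 to 0.04. SETDB1, the methyltransferase that KAP1 recruits, fell by 2.004 in Panc327 (adjusted p = 2.49e-30) and by 1.61 in BxPC3 (adjusted p = 2.24e-21). HDAC1, a histone deacetylase, rose by 1.11 in Panc327 and by 1.10 in BxPC3. FAM208A, also called TASOR, a subunit of the HUSH silencing complex, fell by 1.77 in Panc327, by 2.17 in BxPC3 and by 0.77 in SUIT2 (adjusted p = 1.14e-13).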

How the data were processed

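The authors deposited raw counts of reads per gene symbol for 18 poly(A) RNA-seq libraries, 1 file each, for which the submitters' processing notes name HTSeq 0.6.1, TopHat2 2.1.0, bcl2fastq 1.8.4 and the build hg38. The RNA was prepared with RNeasy Mini and TruSeq RNA v2 kits, per the labels' protocols. For the gene annotation, the strand and the way overlaps were counted: not given in the sources used here. The 5 summary entries of the counting tool (21.3% to 64.6% of records) were left out.

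Counts were analysed with R 4.3.3 and edgeR 4.0.16: filterByExpr (minimum count 10, total 15; 14011 genes), TMM scaling, 6 group means with 12 residual degrees of freedom, robust quasi-likelihood tests, and a call at Benjamini-Hochberg adjusted p under 0.05 over all tested genes. SE values are approximations, taken as the size of the log2 fold change over the square root of F. Levels are TMM-scaled CPM. The script was tested on simulated data in which few genes changed, so that test does not bear on the scaling of these libraries. Alternatives were limma 3.58.1 (voom), DESeq2 1.42.0, other scalings, no filter, fewer libraries, a replicate term and other count rules. Tables and figures used Python 3.11.15 with numpy 2.4.6, pandas 2.3.3, scipy 1.17.1 and matplotlib 3.10.9.

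KRAB, SCAN and finger patterns were searched in coding sequences of GENCODE 29 translated with biopython 1.88, in place of the RefSeq proteins planned. Gene positions and spans are from the same release on GRCh38. Shared sequence is the percent of a transcript's 50-base words found in another gene.

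Named genes were, per THZ1 contrast, the 5 lowest and 4 highest called genes with non-overlapping libraries; per difference of responses, the 3 lowest and 3 highest called; the 5 highest per kb; 3 on each side of the count limit; genes called alike in all lines (3 per direction) or oppositely (5); genes of a list with known roles; and up to 4 co-repressors. No rule was set for which co-repressors to name. Other genes named as the whole of a short list were added after their values were seen. The members and lists were chosen with earlier results of these data known.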

Additional observations from a re-analysis of the deposited data

Results flagged for a closer look

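The THZ1 response differed between lines by a test of the difference itself (edgeR, log2 scale) for these named genes. In BxPC3 minus Panc327, ZNF395 (-1.47), ZNF252P (-0.98) and ZNF638 (-0.95) were lower, and ZNF202 (1.94), ZNF217 (1.93) and ZNF322 (1.92) were higher. In BxPC3 minus SUIT2, ZNF526 (-2.32), ZNF696 (-2.30) and ZNF45 (-2.29) were lower, and ZNF512 (1.33), ZNF428 (0.91) and ZNF267 (0.82) were higher. In Panc327 minus SUIT2, ZNF142 (-3.12), ZNF202 (-3.10) and ZNF45 (-2.92) were lower, and ZNF367 (0.82), ZNF219 (0.68) and ZNF395 (0.65) were higher. All have adjusted p-values under 0.05 over all tested genes, and the genes were picked as the most different of those called.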

How the results depend on the processing

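Leaving out 1 library at a time, the genes lower and higher numbered 80 to 82 and 21 to 26 in BxPC3, 100 to 104 and 9 to 11 in Panc327, and 6 to 11 and 2 to 4 in SUIT2. The member medians ran from -0.75 to -0.65 in BxPC3, -1.19 to -1.11 in Panc327 and -0.05 to -0.02 in SUIT2. The lower and higher differences numbered 9 to 11 and 62 to 70 (BxPC3 minus Panc327), 72 to 76 and 21 to 25 (BxPC3 minus SUIT2) and 93 to 100 and 8 to 9 (Panc327 minus SUIT2). With library size scaling only, 12 genes rose in BxPC3 and 7 in Panc327, the medians were -1.09 and -1.48, and 5 (BxPC3 minus SUIT2) and 4 (Panc327 minus SUIT2) differences were higher. RLE size factors gave medians of -0.66 in BxPC3 and -1.03 in Panc327, DESeq2 -0.66 and -1.04, with 2 genes higher in SUIT2. Upper quartile scaling gave -0.78 in BxPC3 and 16 lower differences (BxPC3 minus Panc327), and fitting only the lines compared gave -0.74 and 18. A count rule of 50 gave medians of -0.88 in BxPC3 and -1.30 in Panc327, where 5.96% of the genes rose, a rule of 200 gave -0.41 and -0.96, and a rule over all libraries gave -0.51 in BxPC3. The cause was not tested. Library size scaling only turned ZNF263 (-0.16), ZNF367 (-0.044), ZNF644 (-0.17), ZNF655 (-0.24) and ZNF768 (-0.093) in BxPC3, ZNF652 (-0.064) in Panc327, and ZNF592 (-0.057) and ZNF768 (-0.044) in BxPC3 minus SUIT2. Of 219 results on named genes, 41 lost or turned a call under at least 1 alternative. No pairing by replicate number was seen, as same-numbered THZ1 and DMSO libraries of a line had deviations correlated between -0.18 and 0.0426. Differently numbered libraries had correlations between -0.105 and 0.148. Deviations from means of 3 libraries cannot settle whether the libraries were paired by design. With a replicate block the genes lower and higher were 81 and 24 in BxPC3, 101 and 10 in Panc327, and 10 and 4 in SUIT2. What depth limits in SUIT2 was not tested.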

Other observations

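Runs of neighbouring ZNF genes were defined after the values were seen. A run held at least 4 of the 122 genes with starts no more than 1000000 bases apart. All runs had lower medians in Panc327 than in SUIT2, as did the 122 genes together, at -1.15 and -0.02. On chromosome 7 the 6 KRAB genes ZNF398, ZNF282, ZNF212, ZNF783, ZNF777 and ZNF746 (chr7:149126416-149497817) all fell in Panc327 and in BxPC3, with median log2 fold changes of -1.89 and -1.27, while 1 of them, ZNF783, fell in SUIT2. On chromosome 19 the 4 KRAB genes ZNF480, ZNF28, ZNF468 and ZNF160 (chr19:52297177-53103436) all fell in Panc327, with a median of -2.002, and 3 of 4 fell in BxPC3. Of the transcript of ZNF468 99.2% is shared with ZNF320, so its own counts are uncertain. The 5 KRAB genes from ZNF558 to ZNF562 (chr19:8806170-9675086) all fell in Panc327, with a median of -1.33. In BxPC3 3 of them fell and 1 rose. The 6 genes from ZNF264 to ZNF274 (chr19:57191500-58213562), 5 of them with KRAB, all fell in Panc327, with a median of -0.94. In BxPC3 4 of these fell and 1 rose. On chromosome 16 the 7 genes between ZNF48 and ZNF267 (chr16:30378106-31917357), 2 of them with KRAB, moved in both directions, with 5 lower and 1 higher in Panc327 and 4 lower and 2 higher in BxPC3.

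The 81 genes that share at most 1% of their transcript with another gene had medians of -1.25 in Panc327, where 70 fell and 5 rose, and -0.81 in BxPC3, where 57 fell and 17 rose. The 41 other genes had medians of -1.06 in Panc327 and -0.45 in BxPC3. The 98 genes that overlap no other counted gene had medians of -1.10 in Panc327 and -0.55 in BxPC3.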
